A study of Mus musculus with 12 samples.

Results

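The genes described here come from families of matrix and cell-surface proteases, of protease inhibitors, and of the lysyl oxidases that crosslink collagen and elastin. Membership went by symbol, so some members are neither proteases nor inhibitors, and others act mostly inside the cell. They were the protein-coding genes with a symbol beginning Adamts, Adam or Mmp plus a digit, Timp plus a digit or Serpin, together with Lox and its Loxl relatives. Of the 10289 genes with a row in at least 1 of the 3 deposited tables, 9266 were protein-coding and 61 of these were members. The GENCODE M21 annotation of GRCm38 holds 149 protein-coding genes that match, so 88 had no row in any table. The members were 13 of 19 Adamts genes, 5 of 5 Adamtsl genes, 6 of 33 Adam genes, 12 of 22 Mmp genes, 2 of 4 Timp genes, 5 of 5 lysyl oxidase genes and 18 of 61 serpin genes.

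RNA was sequenced from C2C12, a mouse myoblast line, carrying a stably integrated GFP, METTL3 or METTL14 construct. METTL3 and METTL14 form the enzyme complex that writes N6-methyladenosine (m6A) into mRNA. All lines were made by lentiviral transfer of a CMV promoter vector and puromycin selection, and nothing in the sources used here says whether a line was 1 clone or a pool. The 4 groups of 2 libraries were GFP-overexpressing myoblasts in growth medium (GM), the same GFP line after 4 days in differentiation medium with horse serum (D4), and METTL3- and METTL14-overexpressing myoblasts in GM. The METTL14 libraries were placed in GM by their titles, although their time point label reads D4. The GFP GM libraries served as the reference of all 3 tables, which compare GFP D4, METTL3 GM and METTL14 GM with them.

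Each table lists the genes that passed the authors' limit on the false discovery rate (FDR of at most 0.05) in their own test. A row therefore says that the gene was called different in that comparison, in either direction. The fold changes and p-values in the tables are the authors' findings and were not used, so no direction or size of a change is given below. The only level in the tables is the authors' mean normalized count of each gene, pooled over libraries, which has no spread and no value per library, group or stage, and how many libraries entered it is not stated. It was divided by the kilobases (kb) of exon in the annotation wherever genes are set side by side. The depth of the libraries is not in the tables, and a gene without a row has no value of any kind.

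The extracellular matrix of muscle is turned over by metalloproteases of related families. ADAM proteins are anchored in the cell membrane and release the outer parts of other membrane proteins, ADAMTS proteins are secreted and cut procollagens and proteoglycans, and matrix metalloproteinases (MMPs) cut collagens, gelatins and many other substrates. TIMP proteins inhibit the metalloproteases directly, whereas most serpins trap serine proteases such as the plasminogen activators. Lysyl oxidases act at the opposite pole, making fibres stable by oxidizing lysines so that neighbouring chains crosslink.

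The libraries held the transcripts of skeletal muscle cells. All 8 muscle markers looked for (Myod1, Myf5, Des, Cdh15, Myog, Myh3, Ckm and Acta1) had a row in some table, whereas none of 6 markers of leukocytes, endothelium, epithelium and adipocytes (Ptprc, Cd68, Pecam1, Cdh5, Epcam and Adipoq) did. The absence of a row gives no level, so it does not show that these markers were silent. Mettl3 had a row in the METTL3 table alone of the 3, and Mettl14 in the METTL14 and D4 tables. Without the direction these rows do not check the labels.

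The D4 comparison listed 57 members, or 38.3% of the 149 annotated, beside 40.0% of all annotated protein-coding genes. This share was near the background and is no result about the members. The METTL3 comparison listed 28 members, or 18.8%, beside 7.78% of all annotated protein-coding genes. The METTL14 comparison listed 22 members, or 14.8%, beside 4.90%. With only the genes that had a row in any table as the base, the shares were 93.4% of members and 95.2% of protein-coding genes for D4, 45.9% of members and 18.5% of protein-coding genes for METTL3, and 36.1% and 11.6% for METTL14. These tables share their GFP GM libraries, so they are not independent of each other, and no test was made of the shares. Collagen genes had 35.6% of 45 listed for METTL3 and 26.7% for METTL14, and integrin and laminin genes had 28.6% and 17.1% of 35. The order of these matrix gene sets depended on the base, since among genes with a row the shares for METTL3 were 45.9% of members, 42.1% of collagen genes and 34.5% of integrin and laminin genes.

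**Figure D1:**
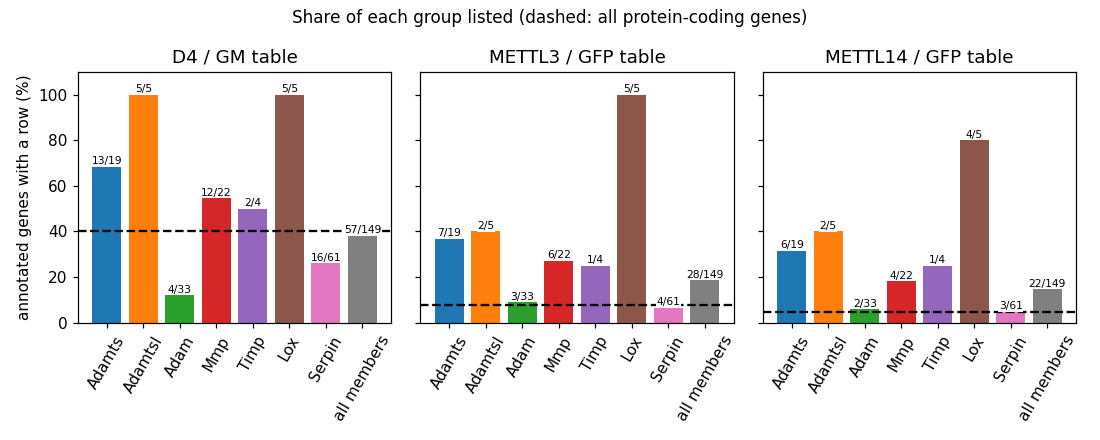
Bars give the percentage of the annotated genes of each group (x axis) that had a row in each of the 3 tables, with the counts above them, and the dashed line is the share of all annotated protein-coding genes (40.0%, 7.78% and 4.90%). The lysyl oxidase bar reaches 5 of 5 in the D4 and METTL3 tables and 4 of 5 in the METTL14 table, and the serpin bar stays at 16, 4 and 3 of 61.

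The promoters of a few members are given first, with the letters of known factor motifs marked. RefSeq windows (GRCm38.p6) from 250 bases before to 50 bases after an annotated start were at hand for 40 members. The letters CAGCTG, an E-box of the kind bound by MyoD and its relatives and identical on both strands, were in at least 1 window of 12 of these 40 genes (30.0%), beside 18.3% of the 27025 genes with a window. By window the shares were 27.1% of 48 and 16.3% of 32851. The genes were Adam17, Adam19, Adamts2, Adamts12, Adamts17, Adamtsl2, Adamtsl5, Timp2, Serpinb1c, Serpinb6a, Serpinb7 and Serpinb9c. A match of letters is not a bound site, and a gene with several windows has more chances of a match.

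The 4 windows below carry the E-box letters, shown in capitals, and were chosen as an inhibitor, a membrane protease, a procollagen protease and a relative without a protease domain. They lie at chr11:118355362-118355661 on the minus strand for Timp2, chr11:46127654-46127953 on the plus strand for Adam19, chr11:50601835-50602134 on the plus strand for Adamts2 and chr2:27079129-27079428 on the plus strand for Adamtsl2. The Timp2 E-box began 188 bases before the start. The Adam19 window is 1 of 3 for this gene, lies well inside the gene at an internal start and holds 4 E-boxes, which began 235, 184, 95 and 63 bases before that start. The other 2 Adam19 windows, 1 of them at the annotated start of the gene, held 0. The 2 of Adamts2 began 24 and 8 bases before the start, and the 2 of Adamtsl2 began 158 and 22 bases before it.
Timp2: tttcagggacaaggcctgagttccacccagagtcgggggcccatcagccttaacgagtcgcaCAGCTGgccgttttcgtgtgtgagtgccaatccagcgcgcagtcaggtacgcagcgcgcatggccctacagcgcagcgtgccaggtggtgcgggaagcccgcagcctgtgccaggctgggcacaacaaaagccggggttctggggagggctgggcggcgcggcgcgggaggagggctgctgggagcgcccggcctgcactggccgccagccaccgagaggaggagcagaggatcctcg
Adam19: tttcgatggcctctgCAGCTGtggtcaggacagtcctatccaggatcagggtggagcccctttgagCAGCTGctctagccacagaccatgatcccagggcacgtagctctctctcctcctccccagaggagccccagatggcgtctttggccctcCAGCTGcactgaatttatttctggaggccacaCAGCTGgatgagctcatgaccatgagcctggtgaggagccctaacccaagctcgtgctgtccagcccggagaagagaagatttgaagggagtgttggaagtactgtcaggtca
Adamts2: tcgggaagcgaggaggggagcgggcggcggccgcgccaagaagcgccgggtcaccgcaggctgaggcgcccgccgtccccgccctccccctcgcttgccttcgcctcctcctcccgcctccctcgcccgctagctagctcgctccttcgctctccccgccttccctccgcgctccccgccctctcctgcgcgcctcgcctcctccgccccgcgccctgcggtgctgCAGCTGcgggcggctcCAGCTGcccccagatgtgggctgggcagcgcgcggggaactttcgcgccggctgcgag
Adamtsl2: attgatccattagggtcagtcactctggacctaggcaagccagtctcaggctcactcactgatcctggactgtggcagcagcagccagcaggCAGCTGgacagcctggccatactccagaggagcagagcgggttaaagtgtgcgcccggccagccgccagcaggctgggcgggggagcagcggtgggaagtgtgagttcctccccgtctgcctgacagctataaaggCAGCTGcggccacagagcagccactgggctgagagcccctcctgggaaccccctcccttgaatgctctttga

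The letters TGANTCA, in which N is any base, include the core of sites for AP-1 (the Fos and Jun factors). Only as a pattern, with N left open, are they the same on both strands. They were in a window of 5 of the 40 genes (12.5%), beside 8.97% of all genes with a window. The genes were Adam19, Mmp10, Mmp12, Serpinb2 and Serpinb7. The windows of the stromelysin gene Mmp10, at chr9:7502092-7502391 on the plus strand, and of Serpinb2, at chr1:107511173-107511472 on the plus strand, are shown with these letters in capitals, as those of a protease and a protease inhibitor. The Serpinb2 window is 1 of 2 for this gene. The match was TGAGTCA in Mmp10, beginning 63 bases before the start, and TGAATCA in Serpinb2, beginning 94 bases before it.
Mmp10: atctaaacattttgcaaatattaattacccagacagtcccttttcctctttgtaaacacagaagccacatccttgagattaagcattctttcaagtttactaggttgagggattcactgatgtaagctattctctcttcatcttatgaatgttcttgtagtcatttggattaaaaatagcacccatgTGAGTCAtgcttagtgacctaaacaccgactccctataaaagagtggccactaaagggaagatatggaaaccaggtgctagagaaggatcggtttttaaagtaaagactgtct
Serpinb2: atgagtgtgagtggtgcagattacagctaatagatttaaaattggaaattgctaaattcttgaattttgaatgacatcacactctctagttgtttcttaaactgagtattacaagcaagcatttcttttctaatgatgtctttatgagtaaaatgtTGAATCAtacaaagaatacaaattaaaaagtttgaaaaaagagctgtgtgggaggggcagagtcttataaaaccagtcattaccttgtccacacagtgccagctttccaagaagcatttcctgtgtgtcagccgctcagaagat

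Levels ran over a wide range among the members. The mean normalized count was 300.3 at the median member, against 545 over all protein-coding genes with a row, and lay between 2.53 for Serpinb6c and 23781 for Timp2. It was at least 1000 for 18 members and under 100 for 21, of which 4 were under 10. Per kb of exon the median member stood at 73.5, against 115 for all protein-coding genes with a row, 18.9 for collagen genes and 76.9 for integrin and laminin genes. Among the 10 highest members per kb were Timp2, Serpinf1, Timp1, Mmp2, Lox, Mmp14, Serpinb6a, Loxl1 and Mmp11. They included metalloprotease inhibitors, a gelatinase with its membrane-bound activator, and crosslinking enzymes, and no Adam, Adamts or Adamtsl gene was among the 10. With coding length, Adamtsl5 took the place of Mmp11.

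**Figure D2:**
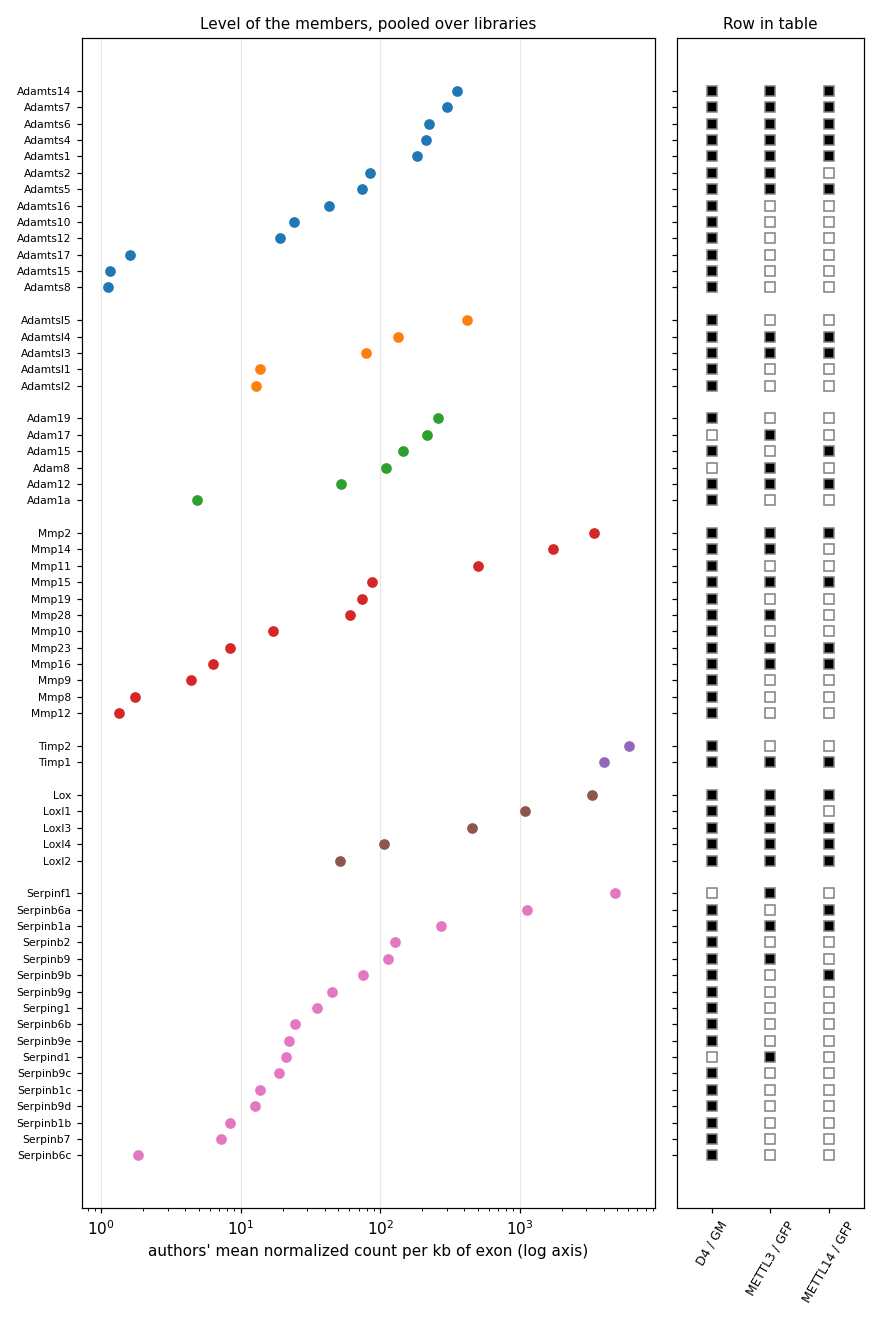
The members are in rows, with 1 of the 61 not shown, sorted within its family by the authors' mean normalized count per kb of exon (x axis, log scale, pooled over libraries and so without error), and a filled square marks a row in the table named below it. The points run from 1.11 for Adamts8 to 6104 for Timp2, and Adam17, Adam8, Serpinf1 and Serpind1 are the members with an empty D4 square.

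The metalloprotease inhibitors were among the most abundant transcripts. Timp2 (ENSMUSG00000017466, chromosome 11, 118301069 to 118355740), whose product also takes part in the activation of MMP2 on the cell surface, had a mean normalized count of 23781. It was listed in the D4 table and in neither METTL table. Timp1 (ENSMUSG00000001131, chromosome X, 20870166 to 20874735), a soluble inhibitor of most MMPs, had a mean normalized count of 3590.1 and was listed in all 3 tables. Before division by length Timp2 stood at 6.62 times Timp1, but the Timp1 exons span only 888 bases and those of Timp2 3896, so that per kb of exon the levels were 6104 and 4043. The ratio per kb was 1.51 with exon bases and 6.17 with coding length, so the distance between these genes depends on the length used. Timp3 and Timp4 had no row.

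The lysyl oxidase family had a larger share of its genes listed than the other families in both METTL tables, and in the D4 table it was matched by the Adamtsl genes. Lox, Loxl1, Loxl2, Loxl3 and Loxl4 were all in the D4 table and all in the METTL3 table, and the METTL14 table held 4 of them, without Loxl1. The D4, METTL3 and METTL14 tables listed 40.0%, 7.78% and 4.90% of all annotated protein-coding genes. Among protein-coding genes with a row these shares were 95.2%, 18.5% and 11.6%, so the D4 count was near that background. Lox (ENSMUSG00000024529, chromosome 18, 52516067 to 52529867), the founding enzyme, had a mean normalized count of 15864, or 3320.1 per kb. Loxl1 (ENSMUSG00000032334, chromosome 9, 58287738 to 58313186), known for elastic fibre upkeep, followed with 3596, or 1091 per kb. Loxl3 (ENSMUSG00000000693, chromosome 6, 83034173 to 83052562) had 2089, or 454 per kb. Loxl4 (ENSMUSG00000025185, chromosome 19, 42593982 to 42612813) had 451, or 107 per kb, and Loxl2 (ENSMUSG00000034205, chromosome 14, 69609068 to 69695834) had 277, or 51.3 per kb. Each step down this order was a ratio between 2.09 and 4.24 per kb of exon, and the order was the same with the longest transcript or the coding length. From Lox to Loxl2 the ratio was 64.8 per kb of exon and 108 with coding length, where the step from Lox to Loxl1 was 6.52. No replicate error can be set beside these ratios.

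**Figure D3:**
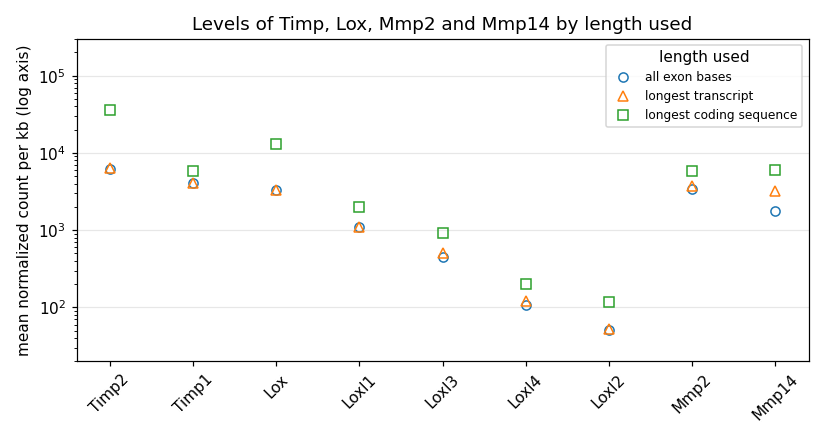
The y axis (log scale) is the authors' mean normalized count per kb, computed with all exon bases, the longest transcript or the longest coding sequence of each gene on the x axis. The 5 lysyl oxidase genes keep their order under each length, whereas the gap between Timp2 and Timp1 widens from 1.51 to 6.17 with coding length.

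Among the MMP genes, Mmp2 and Mmp14 had the highest levels per kb. Mmp2 (ENSMUSG00000031740, chromosome 8, 92827291 to 92853420), the gene of a gelatinase, had a mean normalized count of 11553 and was listed in all 3 tables. Mmp14 (ENSMUSG00000000957, chromosome 14, 54431612 to 54445364), whose membrane-anchored product activates proMMP2, had 10414 and was listed in the D4 and METTL3 tables. Per kb of exon they were at 3427 and 1747, and with coding length the order turned (ratio of Mmp2 to Mmp14 of 1.96 and 0.975). The other gelatinase gene, Mmp9, had a mean normalized count of 15.4, or 4.37 per kb, and was listed for D4, so that the Mmp2 level was 785 times that of Mmp9 per kb. Mmp11, which encodes stromelysin-3, followed with 1408, or 507 per kb, and was listed for D4.

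The membrane-type MMPs are held at the cell surface. Of 6 annotated genes, 3 were listed for D4, the same number for METTL3, and 2 for METTL14. The shares of all annotated protein-coding genes were 40.0%, 7.78% and 4.90%, so the D4 count was near the background. This group is small and was chosen after its values were seen, and no test was made of its counts. Mmp15 had a mean normalized count of 468 (86.8 per kb) and Mmp16 one of 55.1 (6.35 per kb), and each was listed in all 3 tables. Mmp17, Mmp24 and Mmp25 had no row. Mmp23, whose product is a type II membrane protein without the usual haemopexin domain, had 19.6 and was also listed in all 3 tables. Mmp28, with 234, was listed for D4 and METTL3.

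The collagenase and stromelysin genes that lie side by side on chromosome 9 had low levels where they had a row. The block between 7272514 and 7699585 holds 9 annotated Mmp genes, of which Mmp12, Mmp10 and Mmp8 had rows, all in the D4 table alone. The D4 table listed 40.0% of all annotated protein-coding genes and 95.2% of those with a row. The count of 3 of 9 was near the first share and is no result about the block. Their mean normalized counts were 9.63, 29.5 and 4.25. Mmp13, the chief interstitial collagenase of rodents, Mmp3 and Mmp7 had no row.

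The 13 ADAMTS members were all in the D4 table, as were 95.2% of all protein-coding genes with a row. Of them 7 were listed for METTL3 and 6 for METTL14, beside 18.5% and 11.6% of all protein-coding genes with a row. Their median mean normalized count was 784, or 73.5 per kb. Of the procollagen N-proteinases, which trim the amino-terminal propeptides of fibrillar collagens, Adamts14 (ENSMUSG00000059901, chromosome 10, 61197112 to 61273438) had 1862 (358 per kb) and was listed in all 3 tables. Adamts2 had 784 (84.0 per kb) and was listed for D4 and METTL3, and Adamts3 had no row. Adamts7 (ENSMUSG00000032363, chromosome 9, 90163069 to 90208071), which cuts cartilage oligomeric matrix protein, had 1888, whereas its close relative Adamts12 had 208. Per kb they stood at 301 and 19.0, and Adamts14 was the highest of the family per kb of exon, whereas with coding length Adamts6 stood just above it (517 and 513 per kb). Adamts7 was in all 3 tables and Adamts12 in the D4 table alone. Adamts6 had 1732 (222 per kb) and was in all 3 tables, beside 198 (24.0 per kb) for its relative Adamts10, which was in the D4 table alone.

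The proteoglycan-cleaving ADAMTS genes with a row fell into a set with higher levels and a scarce set. Adamts4 had a mean normalized count of 1024, Adamts1 one of 979 and Adamts5 one of 793, and each was listed in all 3 tables. Per kb they stood at 213, 185 and 73.5, beside a median of 115 for all protein-coding genes with a row, so Adamts5 lay below that median. These enzymes cut versican and aggrecan. Adamts15 had 11.9 (1.15 per kb) and Adamts8 had 5.14 (1.11 per kb), and both were listed for D4 alone, while Adamts9 and Adamts20 had no row. Adamts4 lies on chromosome 1. Adamts1 and Adamts5 are neighbours on chromosome 16, with 53.1 kb between them and the same orientation. Adamts15 and Adamts8 are neighbours on chromosome 9, with 20.1 kb between them and opposite orientations. Of their substrates, versican (Vcan) had a mean normalized count of 10353 and was listed for D4, and aggrecan (Acan) had no row.

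The Adamtsl genes encode secreted relatives that lack the protease domain and bind microfibrils and other matrix fibres. All 5 were in the D4 table, which is close to the 95.2% of all protein-coding genes with a row. Adamtsl5 had the highest level, with a mean normalized count of 1971 or 417 per kb, and was in neither METTL table. Adamtsl3 had 610.4 (78.8 per kb) and Adamtsl4 had 566 (135 per kb), and both were listed in all 3 tables. Adamtsl1 had 175 and Adamtsl2 had 103, in the D4 table alone.

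Of 33 annotated Adam genes only 6 had a row, the smallest share of the protease families. By table, 12.1% of the 33 were listed for D4, 9.09% for METTL3 and 6.06% for METTL14. The shares of all annotated protein-coding genes were 40.0%, 7.78% and 4.90%. On this base the Adam share was below the background for D4 and near it in both METTL tables. Of the 6 with a row, 4 were listed for D4, 3 for METTL3 and 2 for METTL14. The shares of all protein-coding genes with a row were 95.2%, 18.5% and 11.6%. The reading of the METTL counts thus depended on the base, and no test was made of them. The genes without a row include a block of 5 on chromosome 8 (Adam18, Adam3, Adam5, Adam32 and Adam9). Adam12 (ENSMUSG00000054555, chromosome 7, 133883199 to 134232146), a meltrin known from fusing myoblasts, had a mean normalized count of 555 and was the only Adam gene listed in all 3 tables. Its relative Adam19 had 1847, or 260 per kb beside 52.5 per kb for Adam12, and was listed for D4. It was the highest of the family per kb of exon, but with the longest transcript Adam17 stood above it (344 and 289 per kb). Adam15 had 902 and was listed for D4 and METTL14. Adam17, the sheddase that frees tumour necrosis factor and ligands of the EGF receptor, had 1536, and Adam8 had 508. These were listed in the METTL3 table alone. Adam1a was lowest with 36.2 and was listed for D4. Adam10, which encodes another widespread sheddase, had no row.

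Outside clades A and B, 4 of 11 annotated serpin genes had a row (36.4%), beside 40.9% of all annotated members. Over all protein-coding genes, 9266 had a row in some table and 22028 are annotated, and the D4 table by itself listed 40.0%. The share of 36.4% was near that and is no result about these serpins. Serpinf1 (ENSMUSG00000000753, chromosome 11, 75409769 to 75422701), which encodes the secreted, non-inhibitory pigment epithelium-derived factor, had a mean normalized count of 11321, or 4799 per kb of exon. On that scale it came after Timp2 among the members, and with coding length Lox also stood above it. It was listed for METTL3 and not for D4. Serping1, the inhibitor of complement C1 proteases, had 81.2 and was listed for D4, and Serpind1, heparin cofactor II, had 45.9 and was listed for METTL3. Serpine2, an inhibitor of thrombin and urokinase, and Serpinh1, the collagen chaperone, had no row. All 24 annotated Serpina genes were without a row, 23 of them in a block on chromosome 12, beside the 40.0% of all annotated protein-coding genes in the D4 table.

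The clade B serpins, whose products mostly stay inside the cell, lie mostly in blocks of neighbouring genes. In the block on chromosome 13 between 32842092 and 34002794, 12 of 15 annotated genes were in the D4 table, beside 2 of 11 in the block on chromosome 1 between 106861173 and 107610484 (Serpinb7 with 14.2 and Serpinb2 with 300.3) and 40.0% of all annotated protein-coding genes. In both blocks each gene that had a row was in the D4 table, as were 95.2% of all protein-coding genes with a row. The chromosome 13 genes included Serpinb6a (ENSMUSG00000060147, 33917918 to 34002794) with a mean normalized count of 6110.5, Serpinb1a with 628, Serpinb9 with 400.04 and Serpinb9b with 253. The other 8 lay between 2.53 and 86.6. Serpinb1a was listed in all 3 tables, Serpinb9 for D4 and METTL3, and Serpinb6a and Serpinb9b for D4 and METTL14. Serpinb6a stood 621 times above Serpinb6c per kb of exon, 1462 times per kb of the longest transcript and 2293 times with coding length, so this ratio depends strongly on the length used. Per kb of exon, Serpinb1a stood 32.8 times above Serpinb1b. The genes of this block share names within the Serpinb1, Serpinb6 and Serpinb9 subfamilies, whose copies resemble each other. How reads that match several copies were counted is not given in the sources used here, so the low levels of the copies are uncertain.

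**Figure D4:**
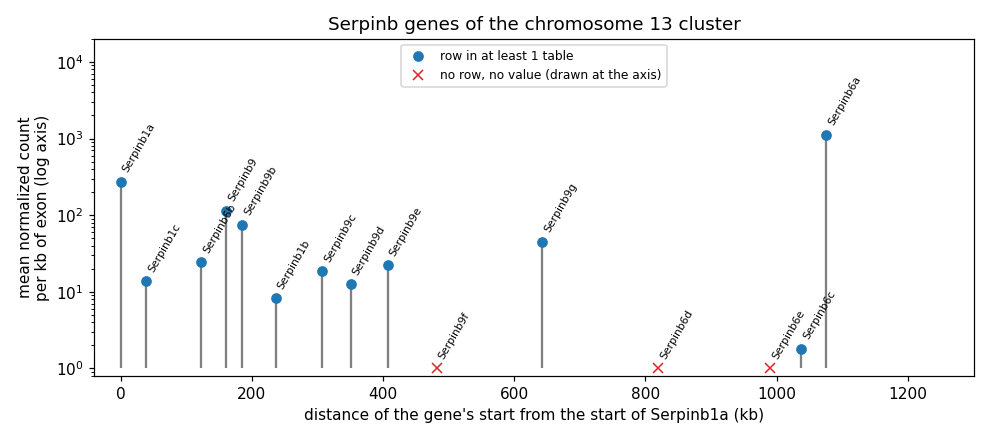
The 15 Serpinb genes of chromosome 13 are placed by the distance of their start from that of Serpinb1a (x axis, kb), with the authors' mean normalized count per kb of exon on a log y axis, and crosses at the axis mark 3 genes with no row. The 12 genes with a value run from 1.82 for Serpinb6c to 1130 for Serpinb6a, which sit side by side.

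The rest of the pathway was read from a list of 38 genes, of which 27 had a row. Over all protein-coding genes, 9266 had a row and 22028 are annotated. Of the 27 listed genes with a row, 24 were in the D4 table, 12 in the METTL3 table and 10 in the METTL14 table. Of all protein-coding genes with a row, 95.2%, 18.5% and 11.6% were in these tables. Plau, urokinase, had a mean normalized count of 1406 and was listed in both METTL tables but not for D4, whereas Plat, tissue plasminogen activator, had 1389 and was listed for D4, as was Plaur, the urokinase receptor, with 1011. Plg, plasminogen itself, had no row. Bmp1, the procollagen C-proteinase that also activates lysyl oxidase, had 8055 and was listed in all 3 tables, and its enhancer Pcolce had 10428 and was listed for METTL3. The membrane-anchored MMP inhibitor Reck had 146 and was listed for D4. Of the substrates of the lysyl oxidases, Col1a1 had 34402 (5242 per kb) and was in all 3 tables, whereas elastin (Eln) had 10.6 (1.31 per kb) and was listed for D4. Fibronectin (Fn1), a matrix protein that binds lysyl oxidase, had 226778 and was in all 3 tables.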

How the data were processed

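RNA-seq was made from 8 C2C12 libraries, 2 in each of 4 groups, and 4 MeRIP-seq libraries were not analysed here. Alignment by the authors was to GRCm38 (hisat2), gene counting used featureCounts and Ensembl release 102, groups were compared in DESeq2, and the versions of these programs are not given in the sources used here. They deposited 3 tables of genes with FDR of at most 0.05. The mean normalized count is a signal that the authors pooled over libraries, as DESeq2 writes it. It was the same in all tables that listed a gene (largest relative difference 4.77e-10). The fold changes, their standard errors, Wald statistics and p-values are the authors' comparisons and were not used, so no test was made. With no value per library in the 3 tables, no depth or replicate error was computed from them.

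Gene types and symbols came from the tables, and positions and lengths from GENCODE M21 on GRCm38, which held the identifiers of all 61 members. Annotated genes no more than 300 kb apart, at least 5 together, were called a block. The background is the share of the 22028 annotated protein-coding genes with a row, since the number of genes tested was not used. The named genes were Mettl3 and Mettl14, the Timp and Lox genes, members in both METTL tables, the 3 highest and the lowest of each other family by mean normalized count, and a list of pathway genes. Of the members, 1 gene enters the counts and medians but is not reported here by name. Other members were named after their values were seen, and so were the motif TGANTCA and the role groups. Members and lists were chosen with earlier results of these data known. Calculations used Python 3.11.15, pandas 2.3.3 and NumPy 2.4.6, and plots matplotlib 3.10.9. The reading of members and lengths was tested on simulated data. Alternatives were filters on the mean normalized count (at least 10 or 100), any gene type, members without the Serpinb or the ADAM genes, other lengths and another base for the share.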

Additional observations from a re-analysis of the deposited data

How the results depend on the processing

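No paired analysis was possible because the tables hold no value per library, and for the same reason no library could be left out. Among members whose mean normalized count reached 100, the D4 comparison listed 37 in place of 57. This filter left out 21 of the 61 members, so these counts have different bases. The share of all protein-coding genes at this filter was not computed. The counts of the METTL3 and METTL14 tables stayed within 1.5 times of 28 and 22 under each alternative tried. The median mean normalized count of 300.3 was 451 for members at or above 10, 292 for members in the D4 table and 555 without the Serpinb genes, an alternative chosen after seeing the data. The median per kb of 73.5 was 76.3 with the longest transcript and 182 with coding length, which is shorter for every gene. The share of 38.3% in the D4 table was 93.4% of the members with a row in any table, beside 95.2% of all protein-coding genes with a row. Of the 10 highest members per kb, 10 remained with the longest transcript and 9 with coding length, the last chosen after seeing the data.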
